A study of Rattus norvegicus with 18 samples.

Results

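Sox11, Gadd45a, Cdkn1a, Flrt3, Sema6a, Tubb6 and Enc1 are 7 genes tied to axon injury and growth. They were picked by name, and each was followed as a single transcript: ENSRNOT00000045963, ENSRNOT00000007698, ENSRNOT00000000628, ENSRNOT00000006454, ENSRNOT00000005476, ENSRNOT00000024947 and ENSRNOT00000022144, in that order. They were chosen with earlier results of these data known, and the study itself lists Cdkn1a, Tubb6 and Enc1 as higher in TKA than in sham rats. Shares of members set beside shares of all transcripts are therefore not independent evidence. The members are 7 of the 41078 transcripts in the count table. The label states what these genes are known for, and no injury to an axon was measured here. RNA came from left L3 and L4 dorsal root ganglia (DRGs), which hold the sensory neurons of the knee together with glia, of 18 Sprague Dawley rats. Of these, 6 naïve rats had no procedure, 6 sham rats had anesthesia, a skin incision on the left knee and sutures, and 6 TKA rats had anesthesia and total knee arthroplasty of the left knee. Sham and TKA ganglia were collected 24 h after surgery. Each group had 3 males and 3 females as labelled, and ages are not given in the sources used here. Totals per rat ran from 20230562 to 29343899 counts, and values below are CPM, counts scaled to each rat's normalized library total.

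When the peripheral axon of a sensory neuron is damaged, the cell body in the DRG is known to switch on a program of transcription factors, stress genes and growth genes. Sox11 is a transcription factor of this program that promotes axon growth. Gadd45a and Cdkn1a (p21, an inhibitor of cyclin-dependent kinases) are stress and growth-arrest genes. Flrt3 is a transmembrane protein that binds Unc5 and latrophilin receptors, and Sema6a is a transmembrane semaphorin read by plexin receptors. Tubb6 is a beta-tubulin, a building block of microtubules, and Enc1 is a kelch protein that binds actin.

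Sequence just before the annotated gene start was found for 6 of the 7 genes in RefSeq (build GRCr8), where the start may differ from that of the transcript counted. The 150 bases before the start are shown for Sox11 (chr6:49738795-49738944), Gadd45a (chr4:97486800-97486949) and Flrt3 (chr3:148461406-148461555), all on the minus strand, because these 3 genes had the highest pairwise correlations among TKA rats. They read 5′ to 3′ and end at the base before the start. Capitals mark CCAAT (or its reverse complement, ATTGG) and the palindrome TGANNTCA.
Sox11: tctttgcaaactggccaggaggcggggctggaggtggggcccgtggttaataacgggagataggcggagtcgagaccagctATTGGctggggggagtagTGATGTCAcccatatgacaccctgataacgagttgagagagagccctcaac
Gadd45a: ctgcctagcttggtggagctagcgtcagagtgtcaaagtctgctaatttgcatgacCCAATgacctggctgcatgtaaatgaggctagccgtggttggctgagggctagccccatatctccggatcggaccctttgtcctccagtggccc
Flrt3: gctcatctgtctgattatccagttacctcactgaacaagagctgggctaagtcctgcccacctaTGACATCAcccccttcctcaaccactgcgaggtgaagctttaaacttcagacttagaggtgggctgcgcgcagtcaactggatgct
CCAAT, searched on both strands of the 250 bases before the start, was found in Sox11, Gadd45a and Tubb6, and it occurs in 34% of 33469 promoters of the same length. The GC box GGGCGG was found in those same 3 genes and in 30.5% of all promoters. TGANNTCA, a pattern picked after the sequences were seen and one that also covers TGACGTCA, was found in Sox11 and Flrt3 and in 13.2% of promoters. The AP-1 motif (TGACTCA or TGAGTCA, 4.05% of promoters), the CRE TGACGTCA (1.59%) and TATAAA (12.9%) were found in 0 of the 6 windows.

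All 7 transcripts had higher mean CPM in TKA than in naïve rats, and Cdkn1a and Tubb6 rose by the thresholds used (adjusted p below 0.05 and fold-change of at least 1.5, edgeR quasi-likelihood test with Benjamini-Hochberg adjustment over all transcripts tested). Those thresholds were met by 13 of 15170 transcripts, or 0.0857%. The members' log2 fold-changes ran from 0.74 to 1.92 with a median of 1.30, and the median over all transcripts tested was 0.02. All 7 members passed the low-count filter and had an unadjusted p below 0.05 in the higher direction, as 11.7% of all transcripts did. Set against sham rats, the members lay between 0.79 and 1.36 on the log2 scale with a median fold-change of 0.91, and 0 of 7 members were called (0% of 15320 transcripts were). Of the 7, 6 were higher with an unadjusted p below 0.05 (Sox11 was not), beside 5.94% of all transcripts. Sham against naïve rats gave log2 fold-changes from -0.05 to 0.69 with a median of 0.40 and 0 members called (0% of 15153 transcripts were), and Gadd45a, Flrt3 and Sema6a were higher with an unadjusted p below 0.05, beside 2.49% of all transcripts. The 3 comparisons share groups, so they do not give independent counts. The members were also chosen with earlier results of these data known, so high shares among them were favoured by that choice.

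**Figure D1:**
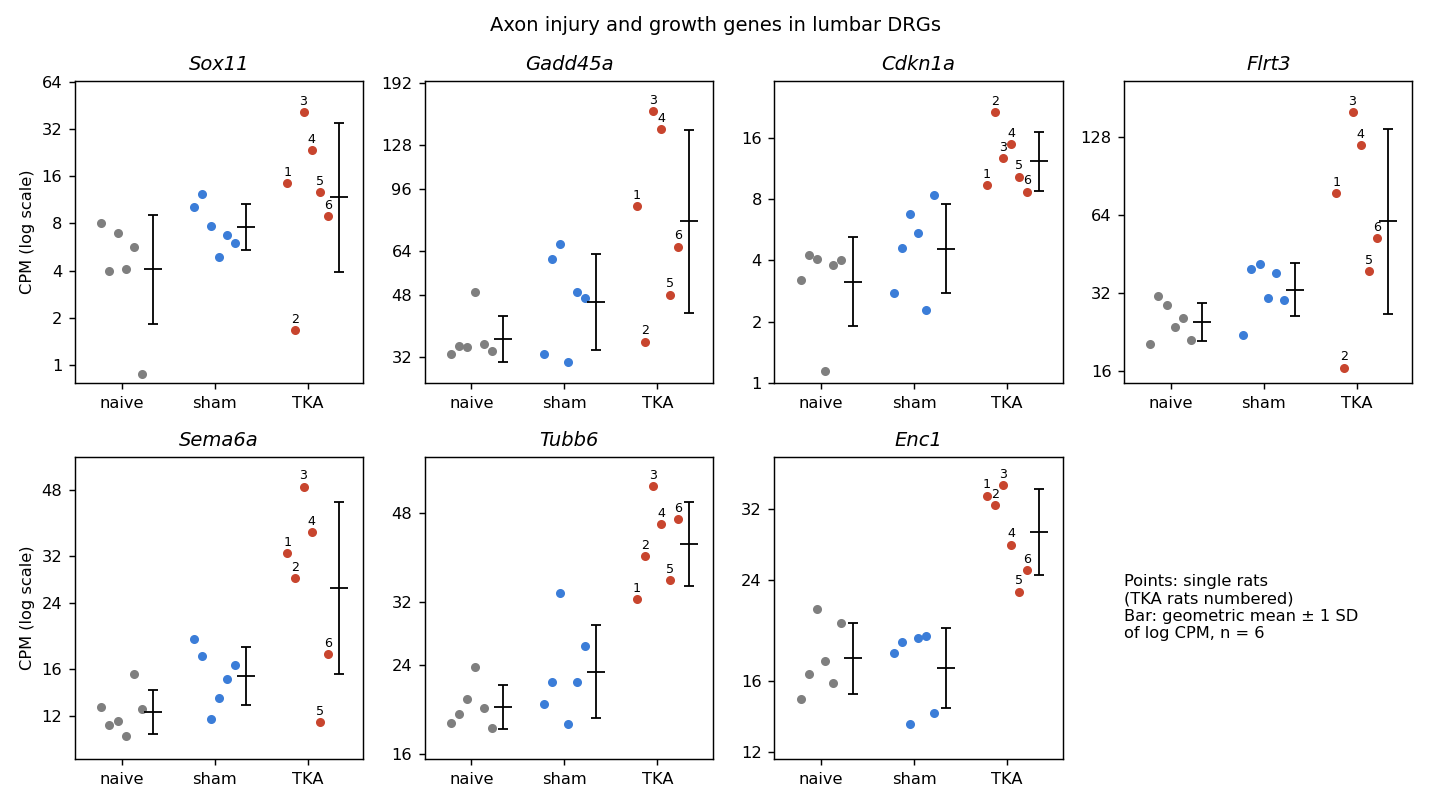
CPM of each transcript on a log axis, 1 point per rat, with TKA rats numbered and bars for the geometric mean ± 1 SD of log CPM (n = 6). Cdkn1a, Tubb6 and Enc1 separate TKA from naïve rats, while Sox11 and Flrt3 have a single TKA rat, rat 2, at 1.66 and 16.5 CPM among or below the naïve rats.

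**Figure D2:**
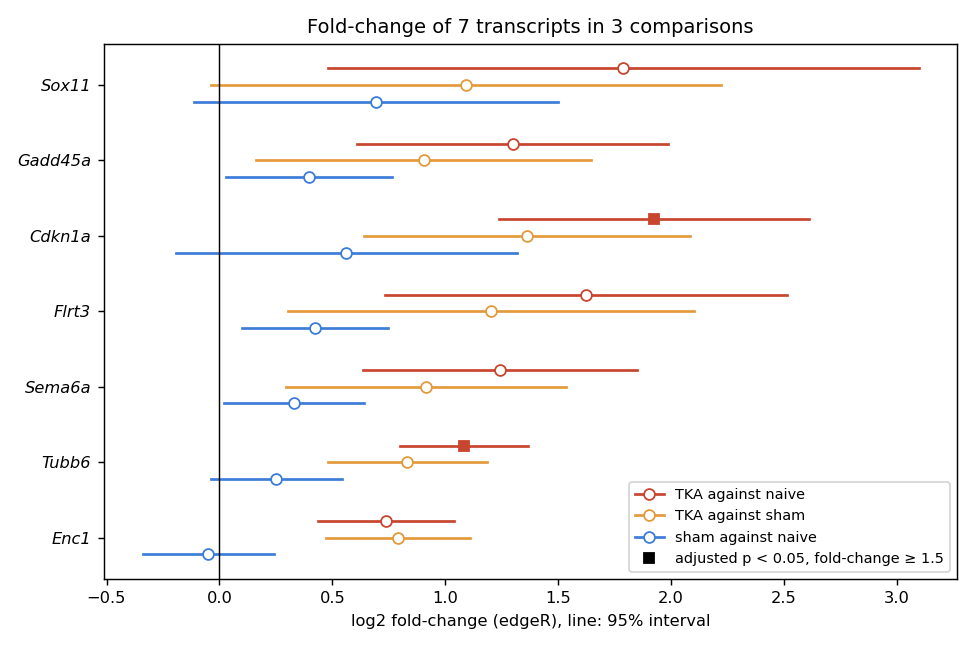
Log2 fold-change of each transcript (edgeR) in the 3 comparisons, with 95% intervals, where filled squares met both thresholds. Only Cdkn1a and Tubb6 in TKA against naïve rats are filled, and the Sox11 interval is the widest, from 0.48 to 3.10 in that comparison.

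Sox11, the transcription factor, had the widest spread of the 7 on the log2 scale among naïve and among TKA rats, while among sham rats Cdkn1a did (SD 0.71 against 0.49 for Sox11). Its naïve values had a lowest, median and highest of 0.876, 4.90 and 8.06 CPM. The same values were 4.91, 7.26 and 12.4 CPM in sham rats, and 1.66, 13.6 and 41.0 CPM in TKA rats. TKA rats 3 and 4 were highest, 5 TKA rats exceeded all naïve rats, and TKA rat 2 was below 5 of the 6 naïve rats and all sham rats. The means were 4.94 ± 2.55 CPM in naïve, 8.0 ± 2.79 in sham and 17.1 ± 13.8 in TKA rats (SD, n = 6). In TKA against naïve rats the log2 fold-change was 1.79 ± 0.61 (SE) with an edgeR adjusted p of 0.185. It was 1.09 ± 0.52 against sham rats (adjusted p of 0.565) and 0.69 in sham against naïve rats (adjusted p of 0.998).

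Cdkn1a was the growth-arrest member with the clearest separation. Its lowest, median and highest values were 1.14, 3.91 and 4.26 CPM in naïve rats, 2.29, 5.02 and 8.39 in sham rats and 8.74, 11.6 and 21.6 in TKA rats. No TKA rat overlapped a naïve or a sham rat, although the highest sham rat at 8.39 CPM was close to the lowest TKA rat at 8.74 CPM. TKA rat 2, lowest for Sox11, was highest for Cdkn1a. The log2 fold-change was 1.92 ± 0.32 against naïve rats (edgeR adjusted p of 0.0419, 95% interval 1.24 to 2.61). Against sham rats it was 1.36 ± 0.34 (edgeR adjusted p of 0.373). The call against naïve rats was lost in 9 of the 12 fits that left out 1 rat, where the adjusted p reached 0.136.

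Gadd45a followed a different order over the TKA rats. Its lowest, median and highest values were 32.7, 34.2 and 49.0 CPM in naïve rats, 31.0, 48.0 and 66.9 in sham rats and 35.4, 76.0 and 160.0 in TKA rats. TKA rats 3 and 4 were again highest and TKA rat 2 lowest, and 4 of the 6 TKA rats exceeded all naïve rats. The log2 fold-change was 1.30 ± 0.32 against naïve rats (edgeR adjusted p of 0.121), 0.90 ± 0.34 against sham rats (adjusted p of 0.533) and 0.40 in sham against naïve rats (adjusted p of 0.998).

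Flrt3 and Sema6a, the surface proteins, had higher TKA means without meeting the thresholds. Flrt3 had a lowest, median and highest value of 20.3, 24.7 and 31.1 CPM in naïve rats, 22.1, 34.4 and 41.3 in sham rats and 16.5, 64.9 and 160.9 in TKA rats. All TKA rats but rat 2 lay above every naïve rat, and rat 2 lay below them all. Its log2 fold-change was 1.62 ± 0.41 against naïve rats (edgeR adjusted p of 0.130) and 1.20 ± 0.42 against sham rats (adjusted p of 0.533). Sema6a had values of 10.6, 12.1 and 15.6 CPM in naïve rats, 11.8, 15.8 and 19.3 in sham rats and 11.6, 30.3 and 49.1 in TKA rats. Here TKA rat 5, not rat 2, was lowest and the one TKA rat within the naïve range. Its log2 fold-change was 1.24 ± 0.28 against naïve rats (edgeR adjusted p of 0.115) and 0.91 ± 0.29 against sham rats (adjusted p of 0.518). In sham against naïve rats the log2 fold-change was 0.42 for Flrt3 and 0.33 for Sema6a, both with an edgeR adjusted p of 0.998.

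Tubb6 and Enc1, the cytoskeletal members, had the smallest fold-changes and the tightest TKA values. Tubb6 had a lowest, median and highest value of 18.01, 19.5 and 23.8 CPM in naïve rats, 18.4, 22.2 and 33.4 in sham rats and 32.5, 42.5 and 54.3 in TKA rats. All TKA rats exceeded all naïve rats, and the highest sham rat lay just above the lowest TKA rat. The log2 fold-change was 1.08 ± 0.13 against naïve rats (edgeR adjusted p of 0.00672, 95% interval 0.80 to 1.37), and the call stood in all 12 fits that left out 1 rat. Against sham rats it was 0.83 ± 0.16 (edgeR adjusted p of 0.234), and in sham against naïve rats it was 0.25 (adjusted p of 0.998). Enc1 had values of 14.8, 16.9 and 21.4 CPM in naïve rats, 13.4, 18.3 and 19.2 in sham rats and 22.9, 30.1 and 35.1 in TKA rats. Its TKA rats lay above every naïve and every sham rat. The log2 fold-change was 0.74 ± 0.14 against naïve rats (edgeR adjusted p of 0.0781) and 0.79 ± 0.15 against sham rats (adjusted p of 0.234). Enc1 was the 1 member whose sham mean, 17.03 ± 2.604 CPM, did not exceed its naïve mean, 17.7 ± 2.57 CPM (SD, n = 6), while the other 6 had means in the order naïve, sham, TKA.

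Without a model, all 6 TKA rats exceeded all 6 naïve rats for Cdkn1a, Tubb6 and Enc1 (3 of 7 members, beside 1.25% of 16048 transcripts), and the exact two-sided permutation p was 0.00216 for each, the smallest that 6 against 6 rats allow. All 6 TKA rats exceeded all 6 sham rats for Cdkn1a and Enc1 (2 of 7, beside 0.436%), with the same exact p. No member separated sham from naïve rats in this way (0 of 7, beside 0.0748%). For the 4 other members the exact permutation p in TKA against naïve rats was 0.0887 for Sox11, 0.00866 for Gadd45a, 0.0303 for Flrt3 and 0.0108 for Sema6a. Against sham rats it was 0.377 for Sox11, 0.0823 for Gadd45a, 0.115 for Flrt3, 0.0433 for Sema6a and 0.00433 for Tubb6. These are 21 exact tests over 7 genes and 3 comparisons, and their p-values are unadjusted. The choice of members with earlier results known favoured such separations.

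The TKA rats differed among themselves along an order that several members shared. Rat 3 was highest of the TKA rats for 6 of the 7 transcripts, all but Cdkn1a, where rat 2 was highest. Against the naïve mean on the log2 scale, TKA rat 3 was 3.29 higher for Sox11, 2.69 for Flrt3, 2.15 for Gadd45a and 1.99 for both Cdkn1a and Sema6a. TKA rat 2 was lower than the naïve mean by the same measure for Sox11 (-1.26), Flrt3 (-0.59) and Gadd45a (-0.03), yet 2.74 higher for Cdkn1a. The SD of log2 CPM among TKA rats was 1.56 for Sox11, 1.19 for Flrt3, 0.86 for Gadd45a and 0.76 for Sema6a, against 1.11, 0.24, 0.22 and 0.19 among naïve rats. It was 0.48 for Cdkn1a, 0.28 for Tubb6 and 0.25 for Enc1 among TKA rats, against 0.70, 0.14 and 0.20 among naïve rats.

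**Figure D3:**
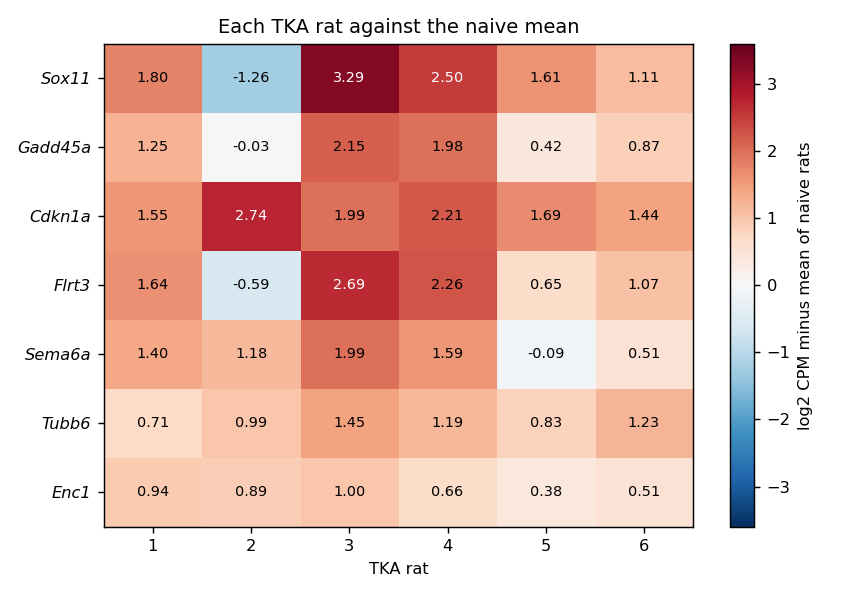
Log2 CPM of each TKA rat minus the mean log2 CPM of the 6 naïve rats, with rats as columns and transcripts as rows. Rats 3 and 4 are high for Sox11, Gadd45a and Flrt3, and rat 2 is at -1.26, -0.03 and -0.59 for these 3 but at 2.74 for Cdkn1a.

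Across the 6 TKA rats, 18 of the 21 pairs of members had a positive Pearson correlation of log2 CPM, with a median of 0.39. The median was 0.02 among naïve rats and 0.06 among sham rats, and the difference between groups was not tested. Gadd45a and Flrt3 had r = 0.98 and Spearman's rho = 1, the same order of all 6 rats (exact permutation p = 0.00139 over 720 pairings, adjusted over 21 pairs p = 0.0292, and for rho p = 0.00278, adjusted p = 0.0583). Without the 2 rats farthest from the median, rats 2 and 3, r was 0.99. Sox11 and Flrt3 had r = 0.95 and rho = 0.94 (exact permutation p = 0.00417, adjusted p = 0.0438, and for rho p = 0.0167, adjusted p = 0.117), and r was 0.80 without rats 2 and 3. Sox11 and Gadd45a had r = 0.89 and rho = 0.94 (exact permutation p = 0.00833, adjusted p = 0.0583, and for rho p = 0.0167, adjusted p = 0.117), and r was 0.79 without rats 2 and 3. By rho, 0 of the 21 pairs had an adjusted p below 0.05.

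Cdkn1a stood apart from this group through rat 2. Its r with Sox11 was -0.48 over the 6 TKA rats, 0.81 without rat 2, -0.61 without rat 3 and 0.92 without both. Over all TKA rats its 6 pairs ran from -0.48 to 0.39. Sema6a and Enc1 had r = 0.86 and rho = 0.83 (exact permutation p = 0.025, adjusted p = 0.131, and for rho p = 0.0583, adjusted p = 0.204). Their r was 0.21 without both rats 5 and 6, but ran from 0.73 to 0.96 with any single TKA rat left out. Leaving out TKA rat 2 moved the median over 21 pairs to 0.74, and leaving out TKA rat 3 moved it to 0.15. Among naïve rats, Gadd45a and Cdkn1a had r = -0.95 with rho = -0.20 (exact permutation p = 0.147 and 0.714, adjusted p = 0.979 and 0.789), and r was -0.40 without rats 1 and 4. The members and pairs were chosen with results known, so these p-values are not independent evidence.

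**Figure D4:**
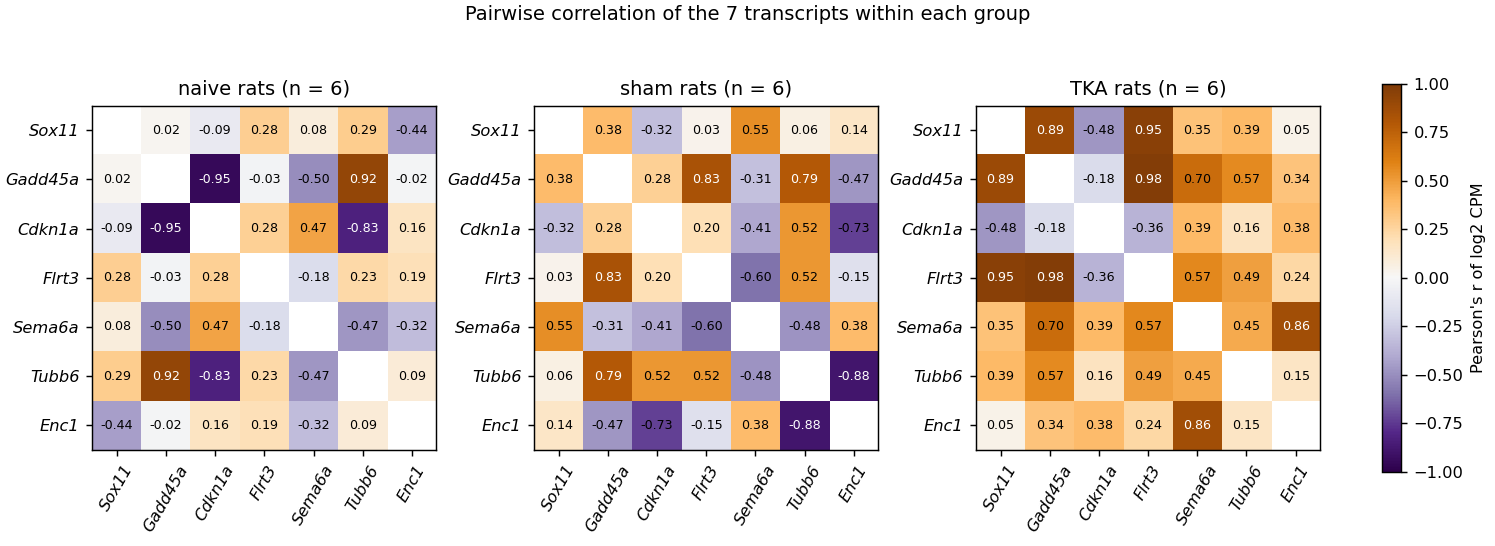
Pearson's r of log2 CPM for each pair of the 7 transcripts within naïve, sham and TKA rats (n = 6 each). The block of Sox11, Gadd45a and Flrt3 runs from 0.89 to 0.98 in TKA rats, where the median over all 21 pairs is 0.39 against 0.02 in naïve and 0.06 in sham rats.

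TKA rat 2 also stood apart in markers of other cell types. Summed over 4 of 8 named muscle markers it had 8541 CPM, against at most 901 in any other rat, and over 6 of 8 myelinating Schwann cell markers it had 89067 CPM, against 49816 in TKA rat 6 and at most 17121 in the other 16 rats. Its sum over 4 of 6 neuronal markers was the lowest of the 18 rats at 17498 CPM, followed by TKA rat 6 at 21886 CPM. By group, neuronal sums ran from 35519 to 46607 CPM in naïve, 34650 to 44104 in sham and 17498 to 39644 in TKA rats, and Schwann cell sums from 6281 to 10864, 6896 to 16816 and 9886 to 89067 CPM. Muscle sums ran from 18.4 to 247, 20.4 to 608 and 33.2 to 8541 CPM, satellite glia sums (4 of 5 markers) from 338 to 406, 291 to 672 and 446 to 2736 CPM, and macrophage sums (5 of 8 markers) from 30.8 to 69.9, 25.1 to 70.3 and 60.6 to 213 CPM in naïve, sham and TKA rats. The neuronal sum was mostly the neurofilaments Nefl, Nefm and Nefh, and the fourth marker, the peptide gene Calca, had 506 ± 73.7 CPM in naïve and 544 ± 249 in TKA rats (log2 fold-change 0.10 ± 0.38, edgeR adjusted p of 0.909). The satellite glia sum was mostly Glul and Gfap, with log2 fold-changes of 0.99 and 3.55 in TKA against naïve rats (adjusted p of 0.205 and 0.0942 in edgeR). The other 2 markers gave -0.18 for Fabp7 and -0.85 for Apoe (adjusted p of 0.658 and 0.641 in edgeR). The Apoe transcript was near the floor, at 0.88 ± 0.56 CPM in naïve and 0.49 ± 0.77 in TKA rats, so its direction says little. TKA rats 3 and 4, highest for Sox11, Gadd45a and Flrt3, had the highest neuronal sums of the TKA rats at 39644 and 36956 CPM. TKA rats 1 and 5 followed at 29060 and 30600 CPM, although rat 1 was above rat 5 for these 3 genes. No named marker was at 0 in a whole group. In bulk ganglia, fewer cells of a type and less RNA per cell cannot be told apart, and the part of these shifts in the members' values was not tested.

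Without TKA rat 2, all 7 members rose against naïve rats by the same thresholds (113 of 15441 transcripts, or 0.732%, did), with edgeR adjusted p from 0.00144 for Tubb6 to 0.0443 for Sema6a. Log2 fold-changes were then 2.03 for Sox11, 1.84 for Flrt3, 1.71 for Cdkn1a, 1.46 for Gadd45a, 1.25 for Sema6a, 1.10 for Tubb6 and 0.71 for Enc1. The 5 remaining TKA rats exceeded all naïve rats for Sox11, Cdkn1a, Flrt3, Tubb6 and Enc1 (5 of 7, beside 1.66% of transcripts), and all sham rats for Cdkn1a and Enc1 (2 of 7, beside 0.636%). Rat 2 was the only TKA rat not above all naïve rats for Sox11 and Flrt3. Their separation here therefore follows from leaving it out and adds no support, and the share of all transcripts had no such choice of rat. Against sham rats 0 members were called without TKA rat 2, with a lowest edgeR adjusted p of 0.152. Leaving out TKA rat 3 instead left 1 member, Tubb6, called against naïve rats (9 of 15383 transcripts were). Sox11 then had a log2 fold-change of 1.31 (edgeR adjusted p of 0.249) and Flrt3 of 1.27 (adjusted p of 0.136). A further fit took the average neurofilament level (Nefl, Nefm, Nefh) of each rat as a covariate, an alternative chosen after seeing the data. In it the log2 fold-change against naïve rats was 3.22 for Sox11, 2.50 for Flrt3, 2.04 for Gadd45a and 1.21 for Tubb6, all 4 called (4 of 7, beside 39 of 15170 transcripts, or 0.257%). The other 3 were not called in that fit, with 1.63 for Cdkn1a (edgeR adjusted p of 0.151), 1.58 for Sema6a (adjusted p of 0.0931) and 0.70 for Enc1 (adjusted p of 0.249). Against sham rats the same fit called 0 members (0 of 15320 transcripts). The covariate was itself lower in TKA than in naïve rats. Log2 fold-changes were -0.50 for Nefl, -0.57 for Nefm and -0.53 for Nefh (edgeR adjusted p of 0.238, 0.179 and 0.188). Adjusting for it therefore also changes what the surgery fold-change measures.

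**Figure D5:**
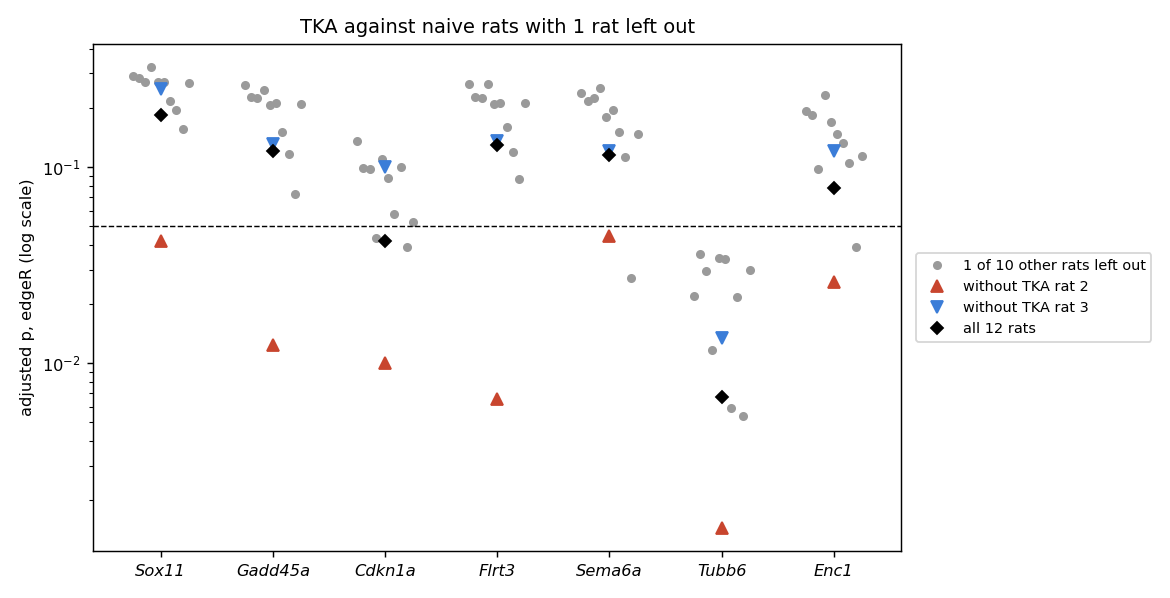
Adjusted p (edgeR, log axis) of each transcript in TKA against naïve rats with all 12 rats and in the 12 fits that omit 1 rat, where the dashed line is 0.05. All 7 transcripts lie below the line without TKA rat 2, and Tubb6 lies below it in every fit shown.

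The number of members called also differed between count models and fits, and the cause was not tested. DESeq2 with no shrinkage of fold-changes called all 7 members in TKA against naïve rats (2.83% of transcripts) and Cdkn1a, Tubb6 and Enc1 in TKA against sham rats (0.418%). A single edgeR fit over the 3 groups called all but Sox11 against naïve rats (6 of 7, beside 0.723%), and limma voom with sample quality weights called all but Sox11 and Sema6a (5 of 7, beside 0.811%). In TKA against sham rats, limma voom called 0 members (1 of 15320 transcripts, or 0.00653%) and the fit over 3 groups called Tubb6 and Enc1 (2 of 7, beside 11 of 16048 transcripts, or 0.0685%). In sham against naïve rats, DESeq2, limma voom and the fit over 3 groups each called 0 members.

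Surgery effects of the members were also compared between sexes. With sex as labelled, the responses of females and males in TKA against naïve rats were compared by an edgeR interaction term. Its adjusted p was 0.995 to 0.999, and 0 of 7 members had an unadjusted p below 0.05. The largest difference, female minus male, was a log2 fold-change of -0.86 ± 0.52 (SE) for Sema6a. TKA rat 4, female by its label, held 3472 counts over 3 transcripts marked in males (3097 or more in males and at most 1 in the other females) and 0 on 1 transcript marked in females (350 or more in the other females). These counts go against its female label, so the 0 of 7 above rests on sex groups in doubt. No interaction was fitted with TKA rat 4 entered as male. Without it the Sema6a difference was -1.45 ± 0.38, with an unadjusted p of 0.00345 in the edgeR model and an adjusted p of 1.0.

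Other genes of the same programs were counted from lists, of which only transcripts named in the study's tables could be found. Those tables were made from these same rats and reached this work shortened and ordered by p, so that 3837 of 41078 transcripts had a name. A low p thus helped a gene to be named at all, and the list counts are a description, not independent evidence. Over all transcripts tested in TKA against naïve rats, 11.7% were higher with an unadjusted p below 0.05. Of 31 injury-linked transcription factors 14 were named and tested, and besides Sox11 all 13 were higher in TKA than in naïve rats with an unadjusted p below 0.05 (median log2 fold-change 0.92). Cebpd, a leucine-zipper factor of inflammatory responses, was the one called: it rose from 26.0 ± 6.57 to 72.2 ± 9.48 CPM (log2 fold-change 1.47 ± 0.16, edgeR adjusted p of 0.00185). Myc had a log2 fold-change of 1.73 ± 0.32 (edgeR adjusted p of 0.0671) and Atf5 of 0.35 ± 0.08 (adjusted p of 0.116).

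Of 35 secreted, receptor and other injury-linked genes, 10 were tested, 9 were higher with an unadjusted p below 0.05 and 1 was called. This was Vgf, a precursor of secreted neuropeptides, which rose from 29.9 ± 2.32 to 104 ± 42.1 CPM (log2 fold-change 1.80 ± 0.26, edgeR adjusted p of 0.0185). Timp1, a protease inhibitor, had a log2 fold-change of 0.79 ± 0.14 and Socs3, a brake on cytokine signalling, of 2.10 ± 0.38, both with an edgeR adjusted p of 0.0671. Of 28 p53, growth-arrest and cyclin genes, 9 were tested besides Gadd45a and Cdkn1a, 0 were called and 6 were higher with an unadjusted p below 0.05. Gadd45g, of the same family as Gadd45a, had a log2 fold-change of 1.47 ± 0.29 (edgeR adjusted p of 0.0910). Btg2 had 0.78 ± 0.21 and Ccnd2, a cyclin and not a growth-arrest gene, had 0.97 ± 0.26 (both with an edgeR adjusted p of 0.136).

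The structural genes gave no common direction. Of 33 growth-cone and cytoskeleton genes, 5 were tested besides Tubb6, with a median log2 fold-change of -0.40 and 0 called (with an unadjusted p below 0.05, 1 was higher and 2 lower). Dclk1, a kinase that binds microtubules, had a log2 fold-change of 0.99 ± 0.34 (edgeR adjusted p of 0.192), while Dpysl2, a tubulin-binding growth-cone protein, had -0.40 ± 0.15 (adjusted p of 0.211) and Kif5a, a neuronal kinesin, -0.58 ± 0.25 (adjusted p of 0.266). Of 27 guidance, receptor and kelch genes, 4 were tested besides Flrt3, Sema6a and Enc1, with a median of -0.06 and 0 called (with an unadjusted p below 0.05, 1 was higher and 2 lower). Adgrl1, a latrophilin of the family that binds Flrt3, had a log2 fold-change of -0.57 ± 0.12 (edgeR adjusted p of 0.0988), with 46.7 ± 4.68 CPM in naïve and 31.5 ± 5.08 in TKA rats. Robo2, a Slit receptor, had 1.20 ± 0.52 (edgeR adjusted p of 0.261) and Keap1, a kelch protein, -0.33 ± 0.13 (adjusted p of 0.238).

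Named transcripts whose log2 CPM most resembled the members' mean z-score over the 18 rats were Socs3 (r = 0.95), Pvr (0.92), Tnfrsf1a (0.90), Htr2b (0.90), Nabp1 (0.90), Vgf (0.90), RGD1306556 (0.89) and Ets2 (0.89). Without TKA rat 2 they were Socs3 (0.95), Itpkc (0.92), Vgf (0.92), Jun (0.92), Pvr (0.92), Tnfrsf1a (0.91), Htr2b (0.91) and Fos (0.90), and 5 stood in both lists. The rats share group differences and library composition, so these r values are a description. Htr2b was near the floor, at 0 CPM in every naïve rat, 0.26 ± 0.34 in sham and 1.78 ± 1.13 in TKA rats. Its log2 values in naïve rats were therefore set by the prior count. The members themselves had r of 0.72 for Sox11, 0.74 for Cdkn1a, 0.78 for Enc1 and 0.87 to 0.91 for the other 4 with the mean they are part of. Socs3 had 5.12 ± 1.496 CPM in naïve, 7.98 ± 2.77 in sham and 21.9 ± 14.9 in TKA rats (SD, n = 6), an order of group means that 6 of the 7 members also had.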

How the data were processed

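Total RNA was extracted and, per the study, mRNA was sequenced as 150 bp read pairs. The deposited table holds raw counts per Ensembl transcript for 18 rats. The submitters' processing notes name HISAT2, featureCounts, DESeq2 and rn6; the strand setting and versions are not given in the sources used here. How reads shared by overlapping transcripts were assigned is not given either, so such counts are uncertain. Names came from the study's tables, and promoters from RefSeq.

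Each pair of groups (6 against 6 rats) was fitted in edgeR 4.0.16 (R 4.3.3) with filterByExpr and TMM factors by the quasi-likelihood test. CPM used TMM factors over 18 rats, and log2 CPM a prior count of 2. Alternatives used DESeq2 1.42.0, limma 3.58.1, other scaling, filters and covariates, and each rat left out. Scripts were tested on simulated data. Exact permutation tests used all 924 choices of 6 from 12 rats. Model p-values set a group difference against the variation between rats, and exact p-values set a difference or r against rearrangements of the rats. The members and lists were chosen with earlier results of these data known. Named list genes were those called plus up to 3 per list with the lowest p in TKA against naïve rats; the 8 most alike named transcripts were also given.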

Additional observations from a re-analysis of the deposited data

Results flagged for a closer look

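In groups of 6 rats, a lowest or highest log2 CPM was picked out by its gap to the nearest rat. The gap had to exceed Dixon's 95% critical share of the range, both taken on the log2 scale. This was met in 3 of the 21 groups tested, where chance gives about 1.05. The values that follow are in CPM. Sox11 in naïve rat 6 was 0.876 CPM, with the next rat at 3.97 CPM. Gadd45a in naïve rat 4 was 49.0 CPM, with the next at 34.8 CPM. Cdkn1a in the same naïve rat 4 was 1.14 CPM, with the next at 3.20 CPM. Without naïve rat 4, Cdkn1a and Tubb6 were still called in TKA against naïve rats (2 members).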

How the results depend on the processing

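The 2 members called in TKA against naïve rats became 7 with DESeq2 with or without a prior (of 344 and 429 transcripts called), 5 with limma voom (of 123), 6 with all 3 groups in a single fit (of 116), 1 with sex as a covariate (of 11), and, added after the data were seen, 4 with the neurofilament covariate (of 39), 1 with TKA rat 4 entered as male (of 11) and 4 without TKA rats 2 and 4 (of 79). Leaving out single rats gave 1 to 7 (7 of 113 transcripts called without TKA rat 2, 4 of 36 without TKA rat 5, 2 of 7 without naïve rat 4, 1 in the other 9). Other size factors, no filter and a filter at a mean of 50 counts kept 2. In TKA against sham rats 0 became 3 with DESeq2 with or without a prior and 2 with all 3 groups in a single fit; the cause of these changes was not tested. The sham against naïve and sex results stayed at 0 members under each alternative run. The median r among TKA rats ran from 0.15 to 0.74 with single rats left out. Of 490 alternative values for single members, 436 kept direction and call, 37 gained a call, 14 lost one and 3 reversed, all for Enc1 in sham against naïve rats, whose log2 fold-change ran from -0.0923 to 0.0148 with single rats left out (above 0 without naïve rat 3, sham rat 3 or sham rat 6).

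Rat numbers were shared across groups, and whether they pair the rats is not given in the sources used here. Of 6 same-numbered pairs, 0 correlated over 0.1 in TKA against naïve rats (1 of 6 in each other comparison). There, 1 of 6 rats correlated best with its own number (2 in TKA against sham, 0 in sham against naïve rats). The median r of same-numbered pairs was 0.028 in TKA against naïve rats, beside -0.012 for other numbers. It was -0.002 beside 0.008 in TKA against sham rats, and 0.058 beside -0.021 in sham against naïve rats. Such low correlations cannot exclude a shared block. With rat number as a replicate block, 0 members and 1 of 15170 transcripts were called against naïve rats (Tubb6 adjusted p of 0.0841), and 0 members in the other comparisons.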
